A study of Mus musculus with 24 samples.

Results

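The 6 wild-type arrays of the stages labelled dp12 and dp18, 3 of each, were compared with each other. They are part of 24 single-colour Affymetrix arrays of mouse RNA that hold wild type and mutant at the stages V, dp12, dp18 and Lac10, and they were chosen by genotype and stage label alone. The labels read wildtype and dp12 for 1 group and wildtype and dp18 for the other, and all animals share a mixed FVB/129SVEV/Black Swiss background in which FVB has the largest share. The dp codes are read here as days of pregnancy and Lac10 as lactation, although the design text gives the numbers as months. The titles give body weights of 38, 42 and 34 g for the dp12 arrays and of 40 and 50 g for dp18 replicates 2 and 3, and none for dp18 replicate 1. These 5 weights all differ and are read here as 5 different animals, while dp18 replicate 1 is told apart only by its number. The titles of dp18 replicates 2 and 3 also hold the words white and brown, in that order, without saying what they describe. The dp12 titles and that of dp18 replicate 1 hold no such word. No label states an agent given to the mice or names the tissue. A treatment text in the labels describes an RNA pull-down with tagged PAB-1 and does not match the total RNA named beside it. Genes that mark mammary gland were high on all 6 arrays, with the beta-casein gene Csn2 between 12.54 and 13.17, the luminal keratin gene Krt8 between 11.51 and 12.05 and the smooth muscle actin gene Acta2 between 11.84 and 12.45, against array medians between 5.31 and 5.56 on the same log2 scale.

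In mammary gland, mid pregnancy is a time of rapid division of the epithelium, driven by progesterone and prolactin. Progesterone acts on hormone-sensing luminal cells, which signal to their neighbours through RANKL and Wnt4, and prolactin acts through Jak2 and Stat5 in the alveolar cells. Late pregnancy is known as the time when alveoli start to make milk proteins and lipid, division slows and the fat pad gives up space. BRCA1, the subject of the series, acts in homologous recombination repair and at stalled replication forks.

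Array dp18 replicate 1 stood apart from the other 5. Its correlation with them over all 41345 probe sets ran from 0.826 to 0.840, while the other pairs lay between 0.978 and 0.988. The standard deviation of its log2 values was 1.68, against 1.94 to 1.99 in the others. With the genes split into 5 equal groups by their mean level over all 24 arrays, its median difference from the dp12 mean went from 0.72 in the lowest group through 0.46, -0.11 and -0.86 to -0.97 in the highest. Replicates 2 and 3 of dp18 stayed between -0.08 and 0.08 in every group. Mutant dp18 replicate 1, which also has no body weight in its title, had the same slope against the mutant dp12 mean, from 0.59 to -0.82. Of 1394 olfactory and vomeronasal receptor genes, which serve smell and are not known for a role in mammary gland, 377 passed the filter on low values, and 224 would have passed without the replicate 1 of both dp18 groups, so the filter took in some of them through the arrays where they are high. Over all 1394 without the filter, the median difference from the dp12 mean was 1.46 on dp18 replicate 1, 0.09 on replicate 2 and 0.05 on replicate 3, and over the 377 it was 2.37, 0.10 and 0.06. The vomeronasal receptor gene Vmn1r116 read 2.86, 3.08 and 2.99 at dp12 and 6.76, 3.40 and 3.67 at dp18, so the first dp18 array alone was far above the rest. Levels by array, or differences with and without this array, are therefore given for the genes and lists below.

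**Figure D1:**
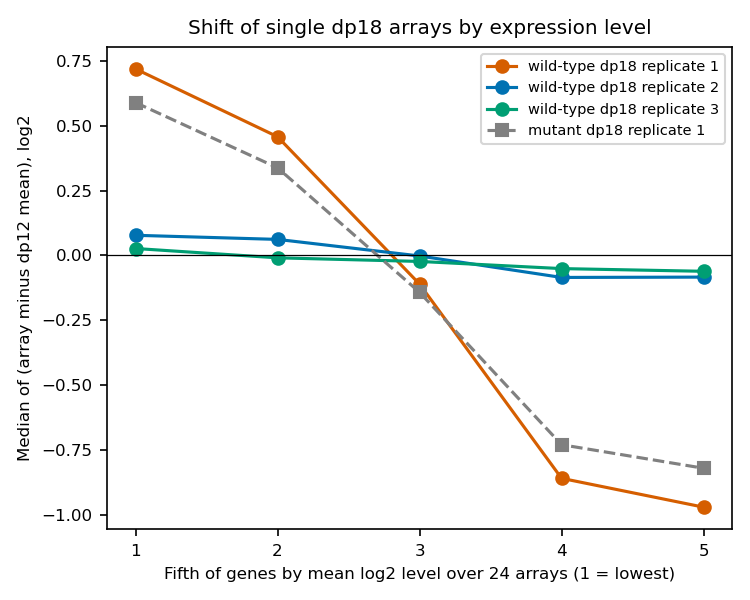
Median difference of a single dp18 array from the dp12 mean of its genotype (vertical axis, log2) in each of 5 equal groups of genes by mean level over 24 arrays (horizontal axis, lowest to highest). Lines stand for wild-type dp18 replicates 1 to 3 and mutant dp18 replicate 1; both replicates 1 slope from above 0.5 to below -0.8, while wild-type replicates 2 and 3 stay within 0.1 of 0.

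Of 15234 genes tested, 4984 had a higher and 10250 a lower mean at dp18. A difference of 1 on the log2 scale is a factor of 2. The median difference was -0.21, and it was -0.04 without dp18 replicate 1. By array it was -0.59, -0.04 and -0.04 for dp18 replicates 1, 2 and 3. No gene passed the threshold of 0.05 in limma with all 24 arrays in the fit, 0 higher and 0 lower (0.0% of genes in each direction), and the smallest adjusted p was 0.167; for the genes named below it ran from 0.172 to 0.824. At an unadjusted p under 0.05 there were 1478 genes (9.7%). The median SE of a difference was 0.30. The SEs given with differences come from this fit, where all groups of the series share 1 estimate of the spread for a gene. They are therefore not the spread of the 6 arrays listed and can be larger. The 3 dp18 values all lay above the 3 dp12 values in 836 genes (5.49%) and all below in 2875 (18.9%). When each array was centred on its median over the 15234 genes tested (array-median centring), these counts became 1874 (12.3%) and 1762 (11.6%). When it was centred on the housekeeping genes they became 3047 (20.0%) and 850 (5.58%). The median difference over all genes was then 0.02 and 0.18, in that order. The array median used for centring was 6.28 on dp18 replicate 1 and from 6.80 to 6.88 on the other arrays. The array medians given at the start are over all probe sets and were highest on that replicate. Without dp18 replicate 1 the remaining arrays did not overlap in 2214 genes (14.5%) in the higher and 3250 (21.3%) in the lower direction. A fit of only these 5 arrays, chosen after seeing the data, passed 69 genes as higher (0.453%) and 21 as lower (0.138%) in limma; with the arrays of the other groups kept in the fit and the same array left out, 0 passed in either direction, with 367 at an unadjusted p under 0.05. These 367 are fewer than 0.05 of the genes, the share such a threshold passes where nothing differs, so the 0 says little. With array weights 1015 genes passed as higher (6.66%) and 1736 as lower (11.4%), where dp18 replicate 2 alone carried 84.8% of the weight of the dp18 group, so no gene is named from that fit. The counts of the gene lists below are read against these shares.

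Genes of mitosis were lower at dp18 in all 53 cases measured. Their differences ran from -1.45 to -0.27 with a median of -0.98, and the median was -0.68 without dp18 replicate 1, against -0.21 and -0.04 over all genes. With array-median and housekeeping centring it was -0.74 and -0.59. The dp18 arrays lay wholly below the dp12 arrays in 41 of the 53, against 18.9% of all genes. Without replicate 1 this held in 41 also, against 21.3%. By array the list median stood at 0.10, -0.29 and 0.16 from the dp12 mean for the dp12 replicates, and at -1.74, -0.89 and -0.50 for the dp18 replicates, so every dp18 array was below every dp12 array. Cdc20, the activator of the anaphase-promoting complex, read 8.33, 7.67 and 7.95 at dp12 and 5.95, 6.75 and 6.99 at dp18, a difference of -1.42 (SE 0.38). Ccnb2, a mitotic cyclin, read 9.76, 9.45 and 9.52 and then 7.54, 8.15 and 8.79, also a difference of -1.42 (SE 0.55). Both genes had their lowest value on dp18 replicate 1, and neither had groups that overlapped. Ube2c, the ubiquitin-conjugating enzyme of that complex, went from 8.29, 8.09 and 8.21 to 6.81, 7.29 and 7.38, and was the 1 gene of the list that passed as lower in the 5-array fit (difference -0.86, adjusted p = 0.041 in limma). Melk, a mitotic kinase, was at 7.63, 7.15 and 7.29 and at 5.69, 6.21 and 6.56. Mki67, the marker of cycling cells, was at 9.64, 9.34 and 9.61 at dp12 and at 7.05, 8.47 and 9.05 at dp18, a difference of -1.34 (SE 0.54) that was -0.77 without dp18 replicate 1. Cdk1, the kinase that starts mitosis, was at 8.61, 8.37 and 8.81 and at 6.70, 8.06 and 8.11, with a difference of -0.97 (SE 0.46) that was -0.51 without that array. The dp18 values of these last 2 genes still lay above the wild-type virgin mean, which was 6.53 ± 0.81 (SD, n = 3) for Mki67 and 6.61 ± 0.46 for Cdk1.

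Cell cycle genes of this kind are known to share the CHR element and CCAAT boxes near their start sites, through which the DREAM complex and NF-Y act. Promoters from RefSeq (GRCm38.p6, 250 bases before to 50 after the start) were found for 43 of the 53 mitosis genes. The CHR letters TTTGAA, on either strand, stood in 69.8% of them, against 12.9% of the promoters of 11867 tested genes and 17.9% of all 32851 promoters. CCAAT, on either strand, stood in 69.8%, against 37.9% and 37.4%. Counts of matches in windows of this length are descriptions of letters and not of sites in use. The promoters of Cdc20, Ube2c and Cdk1 are shown because the genes stand for the list that was lower in every member, with CHR and CCAAT letters and, in Cdk1, the E2F letters TTTCGCGC in capitals. They lie on the minus strand at chr4:118437294-118437593, the plus strand at chr2:164769679-164769978 and the minus strand at chr10:69352863-69353162, in that order.
Cdc20: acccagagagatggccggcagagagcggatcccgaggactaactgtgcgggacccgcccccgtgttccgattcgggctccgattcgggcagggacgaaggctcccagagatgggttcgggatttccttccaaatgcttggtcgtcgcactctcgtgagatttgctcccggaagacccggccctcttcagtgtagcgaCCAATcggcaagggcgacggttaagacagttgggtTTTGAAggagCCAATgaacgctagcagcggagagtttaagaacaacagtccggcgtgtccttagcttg
Ube2c: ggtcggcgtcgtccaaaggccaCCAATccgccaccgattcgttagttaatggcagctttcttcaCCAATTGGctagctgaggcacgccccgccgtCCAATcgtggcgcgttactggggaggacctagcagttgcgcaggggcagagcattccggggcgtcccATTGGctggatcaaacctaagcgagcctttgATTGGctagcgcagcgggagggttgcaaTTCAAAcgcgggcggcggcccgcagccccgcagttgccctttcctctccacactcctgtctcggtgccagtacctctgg
Cdk1: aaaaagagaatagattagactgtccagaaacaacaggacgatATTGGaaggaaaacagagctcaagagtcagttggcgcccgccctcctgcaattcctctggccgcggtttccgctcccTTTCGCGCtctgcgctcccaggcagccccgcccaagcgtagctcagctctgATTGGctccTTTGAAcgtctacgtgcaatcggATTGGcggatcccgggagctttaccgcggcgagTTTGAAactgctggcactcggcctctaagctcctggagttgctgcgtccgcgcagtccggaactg
In Cdc20 the CHR letters begin at -18 from the annotated start, between CCAAT boxes at -53 and -8. Ube2c has CHR letters at -29 and 6 CCAAT matches, of which those at -186 and -183 overlap on opposite strands. Cdk1 has CHR letters at -71 and -15 and E2F letters at -131. Melk, which was lower to a like degree, has none of these letters in its window.

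Genes of DNA replication were lower at dp18 in all 57 cases measured, from -1.24 to -0.05, with a median of -0.78 that was -0.45 without dp18 replicate 1, -0.55 with array-median and -0.39 with housekeeping centring. The groups did not overlap in 33 of them, against 18.9% of all genes, and in 34 without that array, against 21.3%. The list medians by array were 0.23, -0.26 and 0.01 at dp12 and -1.36, -0.57 and -0.35 at dp18. Mcm2, a subunit of the replicative helicase, read 8.38, 7.41 and 7.84 at dp12 and 5.86, 7.24 and 6.96 at dp18 (difference -1.19, SE 0.46). The dp12 arrays were themselves uneven, and dp18 replicate 2 came close to the lowest of them. Cdt1, which loads that helicase at origins, read 8.36, 7.86 and 8.02 and then 6.46, 7.52 and 7.46. Chaf1b, of the complex that deposits histones behind the fork, read 7.86, 7.25 and 7.40 and then 5.88, 6.75 and 6.76. Pold2, a subunit of DNA polymerase delta, and Rpa3, of the single-strand binding complex, differed by -0.92 (SE 0.31) and -0.96 (SE 0.30), or by -0.76 and -0.63 without dp18 replicate 1. In all 5 genes the first dp18 array was the lowest of the 6. E2F is the known regulator of this gene group, and its letters (TTTCCCGC, TTTGGCGC, TTTCGCGC or TTTGCCGC, either strand) stood in 29.8% of the 47 promoters found, against 3.64% of the tested genes and 2.26% of all promoters, while CHR letters stood in 17.0%.

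Repair and checkpoint genes followed with smaller differences. Of 34 genes of homologous recombination and Fanconi repair 32 were lower, with a median of -0.50 (-0.36 without dp18 replicate 1), and the groups did not overlap in 9, with or without that array. The median was -0.27 with array-median and -0.11 with housekeeping centring. The share without overlap, 9 of 34, is closer to the 18.9% of all genes than that of the mitosis list. Brca1 itself read 6.43, 5.74 and 6.13 at dp12 and 5.37, 5.41 and 5.70 at dp18, a difference of -0.61 (SE 0.31). All 3 dp18 values were below all 3 dp12 values, by 0.04 at the nearest pair. Bard1, the partner that BRCA1 needs for its ubiquitin ligase activity, read 6.56, 5.87 and 6.24 and then 5.19, 5.57 and 5.56 (-0.78, SE 0.28). H2ax, the histone variant phosphorylated at breaks, went from 8.44, 8.11 and 8.29 to 6.73, 7.13 and 7.24, with the groups 0.86 apart at the nearest pair, and passed as lower in the 5-array fit. Chek1, the replication checkpoint kinase gene, read 6.89, 6.33 and 6.62 and then 5.77, 5.65 and 6.14, and Fancl, the ubiquitin ligase of the Fanconi core complex, differed by -0.67 (SE 0.18), or by -0.60 without dp18 replicate 1. Wee1, the kinase that holds CDK1 inactive, was at 10.05, 10.23 and 10.36 at dp12 and at 8.43, 9.17 and 9.35 at dp18, a difference of -1.23 (SE 0.62), and passed as lower in the 5-array fit. Its dp18 mean of 8.98 ± 0.49 (SD, n = 3) lay near the virgin mean of 9.14 ± 0.18. Targets of p53 were mixed, with 12 of 18 lower and a median of -0.23, which was -0.04 without dp18 replicate 1 and turned to 0.15 with housekeeping centring. Cdkn1a, which encodes the inhibitor p21, read 8.76, 8.66 and 8.93 and then 8.18, 8.96 and 8.66, so the groups overlapped; its difference of -0.19 was 0.02 without dp18 replicate 1, and 0.05 and 0.20 with each array centred on its median or on the housekeeping genes. The stress-response gene Sesn1 differed by -1.18 (SE 0.48) with all arrays and by -0.56 without the first dp18 array.

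Milk protein and milk fat globule genes were higher in 19 of 22 cases. Their median was 0.33, 0.40 without dp18 replicate 1 and 0.72 with housekeeping centring. The groups did not overlap in 7, against 5.49% of all genes, or in 8 without that array, against 14.5%. Wap, the whey acidic protein gene, had the widest gap of the list. It read 8.45, 9.86 and 7.98 at dp12 and 10.90, 11.46 and 10.99 at dp18, a difference of 2.36 (SE 0.58). The dp12 arrays were far less alike (SD 0.98) than the dp18 arrays (SD 0.30), and the groups stood apart by 1.05. Its virgin mean was 6.03 ± 0.19 (SD, n = 3) and its Lac10 mean 11.76 ± 0.47. Lalba, the alpha-lactalbumin gene needed to make lactose, read 7.39, 10.06 and 8.39 and then 11.02, 10.88 and 10.22 (difference 2.09, SE 1.03), where dp12 replicate 2 alone came near the dp18 values. Both genes, and the list median (-0.19, 0.37 and -0.34 for the dp12 arrays), were highest on that replicate within dp12. The list median stood at 0.40, 0.54 and 0.23 on the dp18 arrays. By this median dp12 replicate 2 thus lay above dp18 replicate 3 and near dp18 replicate 1, so the stages overlapped. The casein gene Csn1s2b read 4.31, 4.96 and 4.06 and then 5.87, 7.89 and 5.20, with dp18 replicate 2 far above the rest, and its Lac10 mean was 9.72 ± 2.82. Cel, a milk lipase, was at 8.25, 9.01 and 8.04 and at 9.31, 10.09 and 9.11. Csn2, the main casein, was close to the top of the scale in both groups, at 12.54, 12.79 and 12.83 and at 13.17, 12.91 and 12.94, a difference of 0.29 (SE 0.40). No milk gene passed in the 5-array fit.

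Stat5 is the known activator of casein genes, and its letters TTCNNNGAA stood in 33.3% of 15 promoters found for the 22 milk genes, against 7.09% of tested genes and 8.3% of all promoters. The Csn2 promoter, on the minus strand at chr5:87699376-87699675, is shown because it holds such a match, at -93, with a CCAAT box at -216, both in capitals.
Csn2: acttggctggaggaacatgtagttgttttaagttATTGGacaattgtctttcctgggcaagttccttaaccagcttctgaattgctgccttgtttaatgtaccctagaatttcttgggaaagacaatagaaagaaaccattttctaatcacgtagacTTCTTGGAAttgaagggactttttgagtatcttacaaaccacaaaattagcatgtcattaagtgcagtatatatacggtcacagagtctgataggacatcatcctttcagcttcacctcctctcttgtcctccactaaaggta
The window of Wap, whose difference was far larger, holds no match to any of the 4 motifs searched, as does that of Lalba.

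The medians of transporters, lipid synthesis and the secretory pathway lay below that of the milk proteins. Of 23 transporter genes 8 were higher and 15 lower, with a median of -0.13 (0.02 without dp18 replicate 1). Without that array 13 were higher and 10 lower, so the balance of directions turned on it. The highest difference in the list was 1.21, that of the water channel gene Aqp1. It was also the 1 member that passed as higher in the 5-array fit, and it is given again below among vessel genes. By the naming rule, the members given next were chosen in the direction of the list median. The water channel gene Aqp5 was lower on every dp18 array, at 7.79, 7.33 and 7.44 and then 6.45, 6.74 and 6.48 (-0.97, SE 0.38), and Slc7a5, an amino acid exchanger, differed by -0.48 (SE 0.52), or by -0.35 without dp18 replicate 1. Of 22 fatty acid and triglyceride genes 16 were lower, and their median was -0.22, and -0.08 without the first dp18 array, near the median of all genes in each case. Lpin1, which makes diacylglycerol, differed by -0.74 (SE 0.62), the desaturase gene Fads2 by -0.37 (SE 0.54) and Dgat2, which makes triglyceride, by -0.71 (SE 0.55), and without that array by -0.74, -0.37 and -0.54. All 18 sterol synthesis genes were lower (medians -0.42 and -0.27), but the groups did not overlap in only 4, a share close to the 18.9% of all genes. Among the 4, Cyp51 differed by -0.88 (SE 0.40) and Dhcr7 by -0.64 (SE 0.28), or by -0.55 and -0.43 without the first dp18 array. Of 24 genes of the secretory pathway and unfolded protein response 23 were lower, and the medians were -0.29 with all arrays and -0.15 without replicate 1. Herpud1, of endoplasmic reticulum degradation, read 9.24, 9.36 and 9.41 and then 8.19, 8.96 and 8.73, and the chaperone gene Hsp90b1 10.93, 11.06 and 10.93 and then 10.34, 10.57 and 10.85. With housekeeping centring the medians of transporters, lipid genes, sterol genes and secretory genes were 0.26, 0.17, -0.03 and 0.10, and the differences of Fads2 and Hsp90b1 were 0.014 and 0.0034.

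Genes of the progesterone and prolactin axis were mostly lower. Tnfsf11, the RANKL gene and the main paracrine signal of progesterone, had the widest gap of all lower genes. It read 7.12, 7.19 and 7.25 at dp12 and 5.40, 5.13 and 5.99 at dp18, a difference of -1.68 (SE 0.55) that was -1.63 without dp18 replicate 1. The dp12 arrays were nearly alike (SD 0.06) and the nearest dp18 array was 1.13 below them. It passed as lower in the 5-array fit (adjusted p = 0.039 in limma), and its virgin and Lac10 means were 5.77 ± 0.38 and 5.16 ± 0.16 (SD, n = 3). Wnt4, another such signal, read 7.90, 8.31 and 7.95 and then 6.54, 6.80 and 7.50 (-1.11, SE 0.34). The progesterone receptor gene Pgr read 5.85, 5.77 and 6.53 and then 5.18, 5.31 and 5.38 (-0.76, SE 0.32), and the oestrogen receptor gene Esr1 7.12, 7.19 and 6.85 and then 6.41, 6.46 and 6.43 (-0.62, SE 0.41). Both receptors had groups that did not overlap, and the dp18 arrays of Esr1 were nearly alike (SD 0.02). The hormone-sensing list was lower in 8 of 10 genes, with a median of -0.50 and -0.55 without replicate 1, and the 3 dp18 arrays were alike at -0.56, -0.49 and -0.59. The list of prolactin, Stat5 and alveolar factors was lower in 17 of 19 genes, and its median of -0.41 was -0.23 without replicate 1 and -0.02 with housekeeping centring, where that of the hormone-sensing list was -0.12. In the prolactin list Tph1, which starts serotonin synthesis, differed by -1.14 (SE 0.53), the epithelial factor gene Ehf by -1.07 (SE 0.77), Elf5, the alveolar lineage factor, by -0.51 (SE 0.46) and Stat5a by -0.41 (SE 0.33). Without dp18 replicate 1 these were -0.83, -0.77, -0.55 and -0.23. Tnfsf11 is a member of both the hormone-sensing and the prolactin list, and Ehf and Elf5 are also in the luminal list below. The counts of these lists are therefore not independent. Stat5a read 8.28, 8.83 and 8.04 and then 7.61, 8.26 and 8.05, so its groups overlapped. Cited4, a transcription co-factor that is in neither list and was chosen after its values were seen, read 10.44, 10.65 and 10.60 and then 9.75, 9.56 and 9.46, and passed as lower in the 5-array fit. The receptor gene Prlr had no probe set with a single symbol and was not analysed here.

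The 2 epithelial layers differed in direction. All 21 luminal genes were lower, from -1.07 to -0.03, with a median of -0.53 and -0.33 without dp18 replicate 1. The groups did not overlap in 11 of the 21, against 18.9% of all genes in the lower direction. The luminal median was -0.30 with array-median and -0.14 with housekeeping centring, smaller but still below 0 and below the medians of all genes. Krt19, a luminal keratin, read 9.84, 9.83 and 9.90 and then 8.44, 9.35 and 8.92. The tight junction gene Cldn3 differed by -0.87 (SE 0.66) and the splicing factor gene Esrp1 by -0.84 (SE 0.53), or by -0.69 and -0.62 without replicate 1. Krt8 read 12.05, 11.91 and 11.97 and then 11.51, 11.63 and 11.62, a difference of -0.39 (SE 0.50) over groups that did not overlap. Of 16 basal and myoepithelial genes 14 were higher, and the list median was 0.54, or 0.60 without replicate 1, 0.77 with array-median and 0.92 with housekeeping centring. The groups did not overlap in 13 of the 16, against 5.49% of all genes in that direction, and in 14 without that array, against 14.5%. Its 3 dp18 arrays stood at 0.54, 0.37 and 0.70 from the dp12 mean, so replicate 1 did not stand apart here. Myh11, the smooth muscle myosin gene, read 10.06, 10.03 and 10.02 and then 10.98, 10.66 and 11.25 (0.93, SE 0.31). Cnn1, calponin, read 10.04, 10.25 and 9.97 and then 11.28, 10.63 and 10.91 (0.86, SE 0.29). Acta2 read 11.97, 11.84 and 11.97 and then 12.45, 12.32 and 12.41 (0.46, SE 0.19), and the contractile genes Tagln and Mylk differed by 0.76 (SE 0.25) and 0.64 (SE 0.24), or by 0.72 and 0.67 without replicate 1. The basal keratin gene Krt14 read 8.76, 8.55 and 8.84 and then 9.17, 9.42 and 9.56 (0.67, SE 0.30). Oxtr, the oxytocin receptor of milk ejection, read 8.09, 8.07 and 7.90 and then 8.96, 8.29 and 8.93 (0.71, SE 0.43). In tissue of this kind fewer cells of a type and less RNA per cell cannot be told apart. Myh11, Acta2, Tagln, Cnn1 and Mylk are also made by the smooth muscle of vessels, and the part of vessels in these values was not tested.

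**Figure D2:**
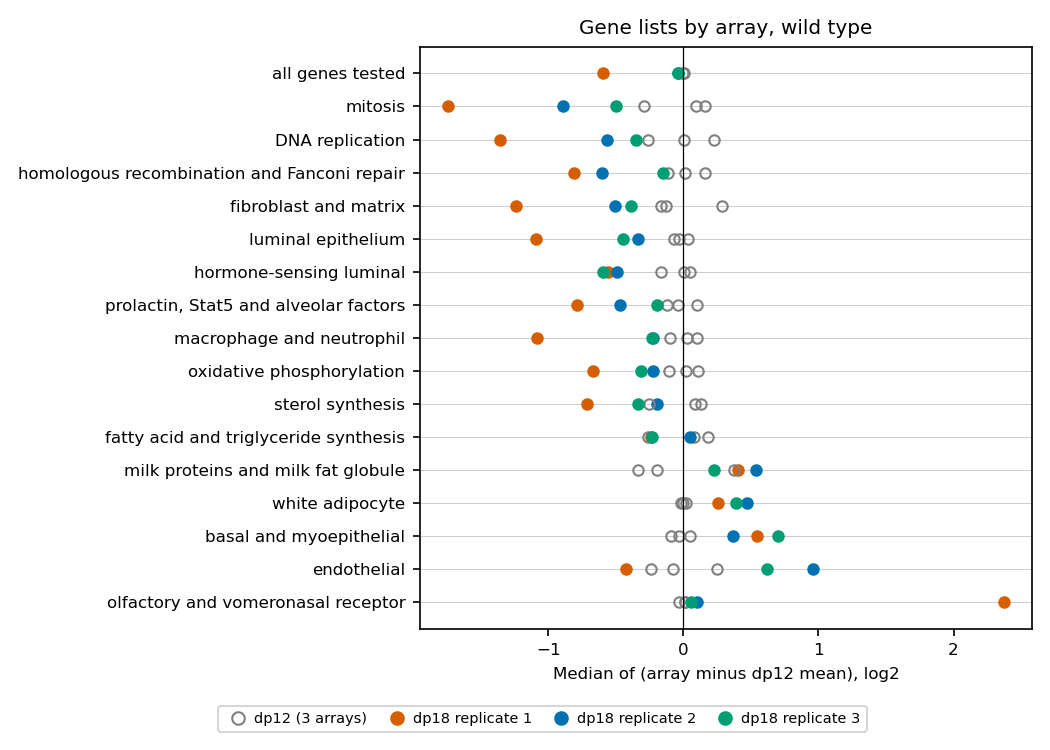
Median over the genes of each list of the difference between 1 array and the dp12 mean (horizontal axis, log2), for the 3 dp12 arrays (open) and dp18 replicates 1 to 3 (filled). Mitosis, replication, luminal and hormone-sensing lists lie left of the dp12 arrays on all 3 dp18 arrays and the basal list lies right of them, while the endothelial list is at -0.42 on replicate 1 and at 0.96 and 0.62 on replicates 2 and 3.

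Of 24 connective tissue genes 23 were lower, and their median was -0.66, or -0.46 without dp18 replicate 1 and -0.27 with housekeeping centring. The groups did not overlap in 15 of the 24, with or without that array, against 18.9% and 21.3% of all genes. The dp18 arrays stood at -1.24, -0.51 and -0.38. Fn1, fibronectin, read 11.00, 10.83 and 11.44 and then 8.83, 9.81 and 9.99 (-1.54, SE 0.39) and passed as lower in the 5-array fit. The dp12 and dp18 means were 11.09 ± 0.32 and 9.55 ± 0.62 (SD, n = 3), and those of the stages before and after, V and Lac10, were 10.90 ± 0.56 and 9.32 ± 0.18. The collagen genes Col1a1 and Col3a1 differed by -1.01 (SE 0.33) and -1.04 (SE 0.35), Loxl1, which cross-links elastin, by -1.22 (SE 0.44) and the fibroblast surface gene Thy1 by -1.18 (SE 0.45). Without dp18 replicate 1 these were -0.66, -0.81, -1.02 and -0.83. Among 23 macrophage and neutrophil genes 19 were lower, and the list median of -0.41 was -0.24 without the first dp18 array and -0.03 with housekeeping centring. Mrc1, the mannose receptor of resident macrophages, read 7.27, 7.28 and 7.43 and then 5.83, 6.40 and 6.57, and was the 1 gene of that list to pass as lower in the 5-array fit. Csf1r, the growth factor receptor of these cells, read 7.42, 7.69 and 7.41 and then 5.39, 6.98 and 7.13 and so stood apart mainly on the first dp18 array. Interferon-stimulated genes had a median of -0.33, of -0.10 without that array and of 0.06 with housekeeping centring, with Ifit1 at 6.65, 6.92 and 7.84 and then 5.83, 6.12 and 6.39. Of 21 T and B lymphocyte genes 14 were higher (median 0.13, or 0.12 without that array and 0.52 with housekeeping centring). The median of 7 plasma cell genes was -0.08, and its sign turned to 0.10 without that array and to 0.30 with housekeeping centring.

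The endothelial list turned on the first dp18 array. Of its 21 genes 18 were higher, their median was 0.43 (0.82 with housekeeping centring), and no member had groups that did not overlap. Without dp18 replicate 1 all 21 were higher, the median was 0.78 and 18 did not overlap, against 14.5% of all genes. The list stood at -0.42 on replicate 1, below each dp12 array, and at 0.96 and 0.62 on replicates 2 and 3, above each. Kdr, the main receptor for VEGF, read 7.96, 8.45 and 8.49 and then 8.05, 9.69 and 9.55, so its difference of 0.80 (SE 0.75) became 1.32 without the first array. Sox18, a factor of vessel and lymphatic endothelium, read 5.97, 6.31 and 6.64 and then 6.38, 8.00 and 7.63. Tek, the angiopoietin receptor gene, read 7.36, 7.46 and 7.59 and then 7.04, 8.29 and 8.47. These 3 passed as higher in the 5-array fit, with differences of 1.32, 1.51 and 0.91. Other vessel genes among the 69 that passed there, named after their values were seen, were Gpihbp1, which carries lipoprotein lipase to the capillary wall (8.14, 8.14 and 8.46, then 8.66, 9.68 and 9.23), the Notch ligand gene Dll4 (6.28, 6.45 and 6.76, then 6.97, 7.97 and 7.46) and the water channel gene Aqp1 (9.45, 9.38 and 9.76, then 10.45, 11.06 and 10.70). Gpihbp1, Dll4 and Aqp1 were each above all dp12 values on all 3 dp18 arrays, by 0.20, 0.21 and 0.69 at the nearest pair.

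Of 18 white adipocyte genes 14 were higher, and their median was 0.32, or 0.38 without dp18 replicate 1 and 0.70 with housekeeping centring. The groups did not overlap in 4 higher and 1 lower gene, against 5.49% and 18.9% of all genes. Without that array they did not overlap in 9 and 1, against 14.5% and 21.3%. Lep, leptin, had one of the 3 widest gaps among all higher genes, at 5.12, 4.84 and 4.91 and then 7.41, 6.15 and 7.04 (1.91, SE 0.44), and was above dp12 also on the first dp18 array. Fabp4, a lipid carrier, read 10.95, 11.51 and 11.81 and then 12.07, 12.21 and 12.17. Plin4, which coats lipid droplets, and Aqp7, a glycerol channel, differed by 0.86 (SE 0.38) and 0.87 (SE 0.65), or by 1.07 and 1.15 without dp18 replicate 1. Lep, Plin4, Aqp7 and the adipogenic factor gene Pparg passed as higher in the 5-array fit, while Adipoq, adiponectin, read 4.46, 4.51 and 4.53 and then 5.06, 4.72 and 4.39, low on every array, with groups that overlapped. Of 5 brown adipocyte genes tested 4 were lower and 1 higher, and the list median of -0.20 was close to that of all genes. Without dp18 replicate 1 it was -0.35, and with housekeeping centring 0.19. Cox7a1, a muscle and brown fat form of a respiratory subunit, was lower at 6.54, 6.08 and 5.85 and then 4.89, 5.15 and 5.06 (-1.12, SE 0.21, adjusted p = 0.172 in limma), and Dio2 differed by -0.74 (SE 0.29, or -0.64 without dp18 replicate 1), although a second probe set of the gene had the opposite sign. The higher member, named after its values were seen, was Cidea, a lipid droplet protein gene, at 7.37, 8.23 and 7.30 and then 8.73, 9.42 and 8.16 (1.14, SE 0.80), with groups that overlapped. The endothelial and adipocyte lists were higher on dp18 replicates 2 and 3, where the luminal list was lower at -0.34 and -0.45, and the part that the makeup of the samples had in the other lists was not tested.

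**Figure D3:**
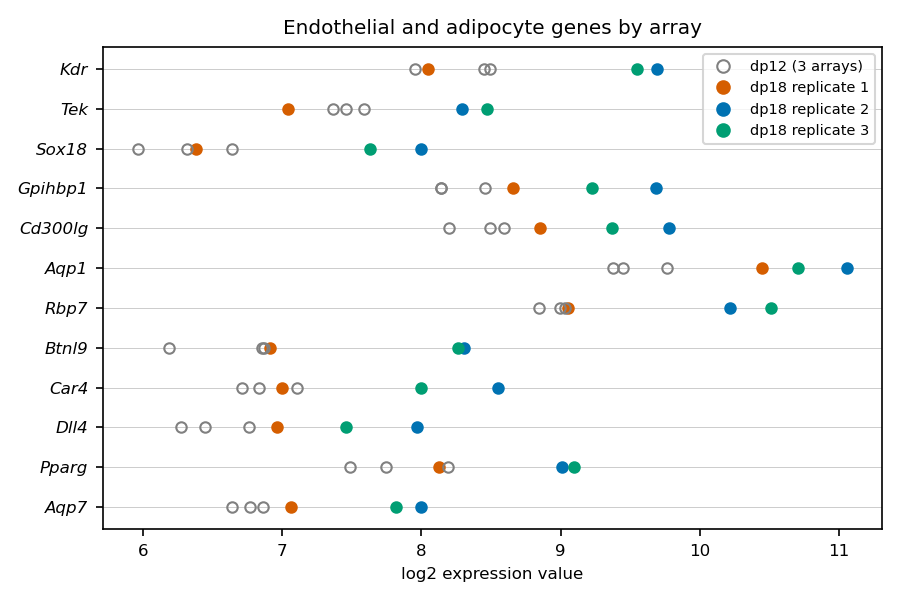
Log2 expression value (horizontal axis) of endothelial and adipocyte genes that passed as higher in the fit of 5 arrays, for the 3 dp12 arrays (open) and dp18 replicates 1 to 3 (filled); the genes were picked after their values were seen. Replicates 2 and 3 lie right of all dp12 arrays in every gene shown, while replicate 1 lies among or near them in most, such as Kdr at 8.05, 9.69 and 9.55.

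The 12 genes in each direction with the widest gap between the groups were chosen by that gap, so their lack of overlap is by construction. After Wap and Lep the higher genes included Tmem182, a membrane protein gene of muscle and fat, at 7.77, 8.14 and 8.14 and then 9.10, 10.36 and 9.93 (1.78, SE 0.67). Prelp, a matrix proteoglycan, read 9.32, 9.11 and 9.07 and then 10.42, 10.21 and 10.16, with an SD of 0.13 within each group. Timp4, an inhibitor of matrix metalloproteinases, differed by 1.40 (SE 0.98), Ppp1r14a, an inhibitor of myosin phosphatase in smooth muscle, by 0.93 (SE 0.43) and the potassium channel gene Kcnc2 by 1.00 (SE 0.39), and without dp18 replicate 1 by 1.47, 0.89 and 1.01. The bitter taste receptor genes Tas2r143 and Tas2r135 read 5.35, 5.23 and 5.36 and then 6.22, 6.25 and 6.16, and 4.98, 4.73 and 4.81 and then 5.77, 5.72 and 5.86. Both were alike on all dp18 arrays. The gap by which they were chosen favours such genes, so they are not set against the olfactory receptors as a family.

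Small nucleolar RNA genes, which guide modification of ribosomal RNA, made up 3 of those 12. Snora44 read 7.95, 7.95 and 8.09 and then 9.23, 9.32 and 9.70 (1.42, SE 0.41), Snora74a 6.84, 6.83 and 6.98 and then 7.94, 8.39 and 8.69 (1.46, SE 0.38), and Snora75 8.60, 8.52 and 9.24 and then 11.10, 10.09 and 10.20 (1.68, SE 0.44). All 3 passed as higher in the 5-array fit. Over all Snora genes, a group formed after these values were seen, 19 of 25 were higher (median 0.20, or 0.46 without dp18 replicate 1). The groups did not overlap in 9, against 5.49% of all genes, or in 17 without that array, against 14.5%. The 3 genes above, chosen by their gap, are among the 9. Of 40 Snord genes 24 were higher (medians 0.14 and 0.35). These RNAs lie in introns of host genes, and whether a probe set reads the small RNA or its host transcript is not given in the sources used here.

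Among the lower genes of widest gap, Cdo1, the cysteine dioxygenase gene, read 7.22, 7.25 and 7.72 and then 5.11, 6.24 and 5.51 (-1.78, SE 0.52). Pnmt, known for the last step of adrenaline synthesis, read 5.91, 5.94 and 5.73 and then 4.10, 4.52 and 4.85 (-1.37, SE 0.25, adjusted p = 0.172 in limma). Tissue factor (F3) read 10.25, 10.27 and 10.81 and then 8.00, 9.22 and 9.41, and the proton pump subunit gene Atp6v1b1 9.06, 8.92 and 8.69 and then 6.68, 7.61 and 7.91. Both were lowest on the first dp18 array and clear of dp12 on all 3. Lacc1, an enzyme gene of macrophages, read 7.20, 7.25 and 7.10 and then 6.15, 5.91 and 6.26, Elapor1 6.71, 6.76 and 6.62 and then 5.33, 5.75 and 5.68, and the fibroblast gene Lrrc15 6.61, 6.36 and 7.75 and then 5.31, 5.44 and 5.54. The gene model Gm4963 differed by -1.69 (SE 0.36) and the microRNA locus Mir1192, annotated without an arm, by -1.12 (SE 0.35), or by -1.53 and -0.98 without dp18 replicate 1. Tnfsf11, H2ax and Fn1, described above, complete the 12.

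**Figure D4:**
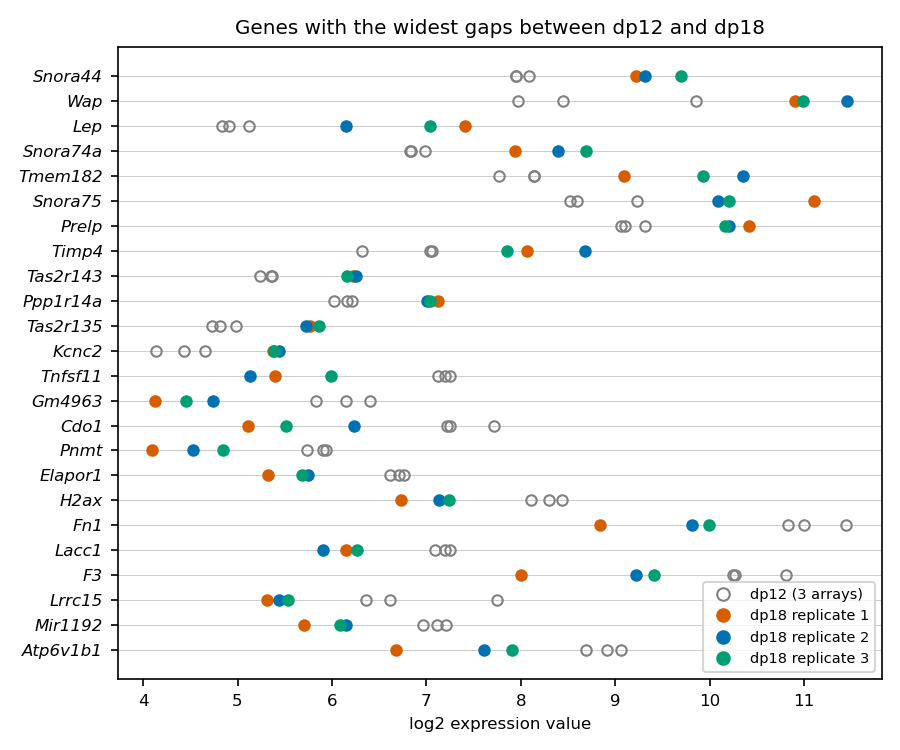
Log2 expression value (horizontal axis) of the 12 higher and 12 lower genes with the widest gap between dp12 (3 arrays, open) and dp18 (replicates 1 to 3, filled). The genes were chosen by this gap, so the lack of overlap is by construction, and the picture shows the size of the gap and the place of replicate 1, such as Wap at 10.90 beside 11.46 and 10.99.

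Lists of general metabolism were mostly lower too. Among 39 oxidative phosphorylation genes all but 1 were lower, and the median was -0.43, or -0.29 without dp18 replicate 1, such as Cox5b at 10.58, 10.66 and 10.52 and then 9.92, 10.13 and 10.05, and the groups did not overlap in 20 of the 39, against 18.9% of all genes. Of 61 cytosolic ribosomal protein genes 52 were lower (medians -0.26 and -0.18), although their probes can also bind transcripts of near-identical copies elsewhere in the genome. Housekeeping genes had medians of -0.32 and -0.15, with the succinate dehydrogenase gene Sdha at -0.57 (SE 0.27), or -0.29 without dp18 replicate 1. With housekeeping centring the oxidative phosphorylation and ribosomal medians were -0.04 and 0.13. Of 15 clock genes 14 were lower (medians -0.24 and -0.16), and Nr1d2, a repressor of the clock, read 8.85, 8.93 and 8.94 and then 7.25, 8.05 and 8.33. Immediate early genes had medians of -0.16 and -0.10, and genes of involution -0.22 and 0.06. With housekeeping centring the medians of the clock, immediate early, involution and housekeeping lists turned to 0.15, 0.23, 0.17 and 0.06. Among the involution genes Socs3, the feedback inhibitor of Stat3, was higher at 8.02, 7.89 and 7.90 and then 8.50, 8.46 and 8.34 (0.49, SE 0.20), although a second probe set of the gene had the opposite sign. Among lists that mark neighbouring tissues, medians were 0.12 for 12 skeletal muscle, 0.12 for 5 keratinocyte and -0.17 for 6 nerve genes. Without dp18 replicate 1 they were 0.06, -0.02 and -0.09, with array-median centring 0.35, 0.35 and 0.06, and with housekeeping centring 0.51, 0.51 and 0.22, so the sign of the keratinocyte and nerve medians turned with these choices.

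The mutant arrays of the same stages, which share no array with the wild-type step, were set beside it. The mutant allele is not named in the labels. Mitosis genes had a median of -0.91 in mutants against -0.98 in wild type, and replication genes -0.80 against -0.78, with all members lower in both. Without the replicate 1 of dp18 these medians were -0.62 against -0.68 and -0.57 against -0.45. The luminal list stood at -1.23 in mutants and -0.53 in wild type, the connective tissue list at -0.05 and -0.66, and the milk list at 0.05 and 0.33. The mutant dp18 arrays were far apart in the luminal list, at -1.16, -2.10 and -0.21 from the mutant dp12 mean, and its mutant median was -0.69 without mutant dp18 replicate 2 and -1.69 without replicate 3. In the connective tissue list they stood at -0.11, 0.36 and -0.45. Wap differed by 0.91 in mutants and 2.36 in wild type (difference of the steps 1.45, SE 0.83). Fn1 differed by -0.03 and -1.54 (difference -1.52, SE 0.55) and Krt14 by -0.41 and 0.67 (difference 1.07, SE 0.42). Tested over all genes, the difference of the steps passed in 0 of 15234 genes (0.0%) in limma, with a smallest adjusted p of 1 and 63 genes at an unadjusted p under 0.05. These 63 are fewer than 0.05 of the genes, the share such a threshold passes where nothing differs, so the 0 says little. Neither a difference nor a likeness of the genotypes in this step is therefore shown for any single gene, and the differences of the list medians were not tested.

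**Figure D5:**
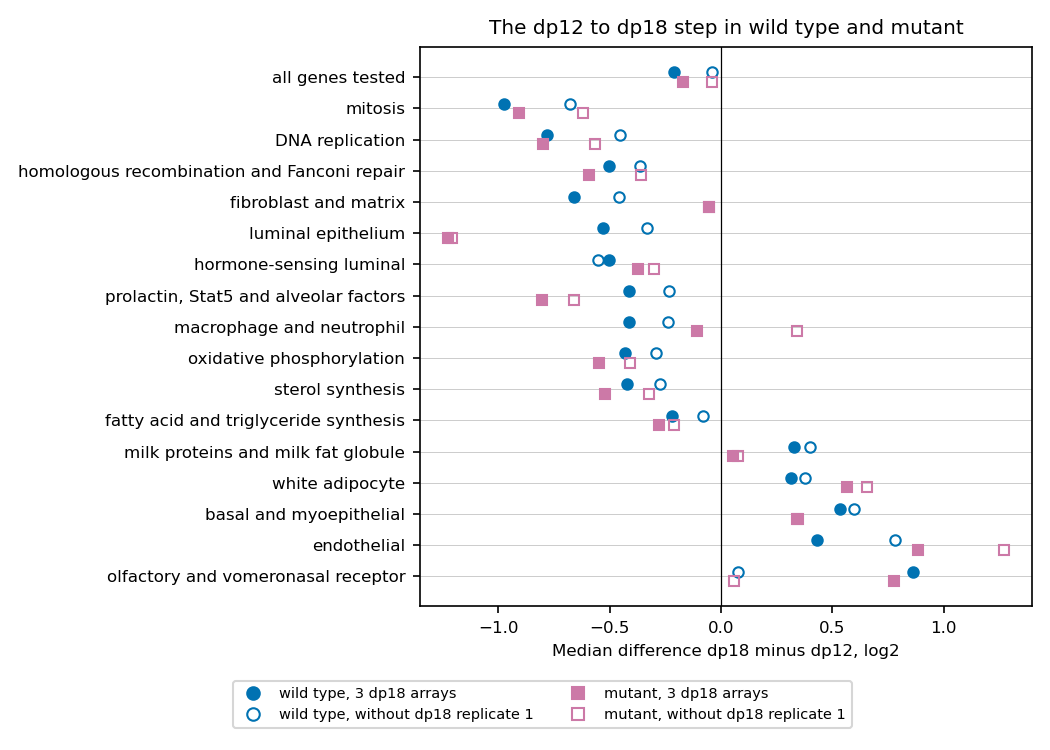
Median over each list of the difference dp18 minus dp12 (horizontal axis, log2) in wild type (circles) and mutant (squares), with all 3 dp18 arrays (filled) and without dp18 replicate 1 (open). Mitosis medians lie at -0.98 and -0.91 in wild type and mutant, luminal medians at -0.53 and -1.23 (-0.69 without mutant dp18 replicate 2), and connective tissue medians at -0.66 and -0.05.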

How the data were processed

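RMA (robust multi-array average, version not stated) gave the deposited log2 values, per the submitters' processing notes. It gives every array the same probe intensity distribution, which hides any shift common to most genes. The values were used as the authors left them. The wild-type dp12 and dp18 samples were grouped by title and stage label, and the number of arrays limits the precision.

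Only probe sets with a single gene symbol were used, 23521 of 41345, which stand for 22180 genes. For the 1082 genes with several, the probe set of highest mean was taken. The filter on low values required 3 or more arrays above their own median over all probe sets and kept 15234 genes.

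The test was limma 3.58.1 (R 4.3.3), fitted to the 24 arrays with a mean for each group, 16 residual and 4.35 prior degrees of freedom, Benjamini-Hochberg adjustment and a threshold of 0.05. The script was tested on simulated data. Genes were named by rule: the 12 with the widest gap between the groups in each direction, up to 4 of each of 31 lists, and a fixed panel, of which Ccnb1 and Prlr had no probe set with a single symbol. Genes outside the rule are marked. Members and lists were chosen with earlier results of these data known. Alternatives covered the filter, the choice of probe set, 2 centrings, a variance trend, array weights, other sets of arrays, a replicate block and leaving out single arrays. Promoters were matched by symbol to RefSeq (GRCm38.p6); the build behind the array annotation is not given in the sources used here.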

Additional observations from a re-analysis of the deposited data

How the results depend on the processing

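With all 24 arrays, 0 genes passed in limma, and the count stayed at 0 in both directions without a filter, with the stricter filter, the mean of probe sets, both centrings, a variance trend, the 6 arrays alone, the 12 wild-type arrays alone, and 10 arrays without the replicate 1 of both dp18 groups. It was 69 higher and 21 lower in the 5-array fit, and 1015 higher and 1736 lower with array weights. Leaving out 1 array gave 0 higher and from 0 to 1 lower, the 1 gene, the pseudogene Rps15a-ps5, appearing without dp18 replicate 2.

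Genes whose groups did not overlap numbered 836 higher and 2875 lower. They were 3047 and 850 with housekeeping centring, 1874 and 1762 with array-median centring, 2061 higher without a filter and 2214 higher without the 3 arrays of lowest correlation. Leaving out 1 array gave 1151 to 2214 higher and 3250 to 4959 lower, with fewer arrays to keep apart. The highest of these came without dp18 replicate 1 (2214 higher) and dp18 replicate 3 (4959 lower). The difference between the wild-type and mutant steps gave 0 genes under all alternatives run.

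Of 135 named genes, 125 kept the direction of their difference under all alternatives run. With housekeeping centring the sign turned for Ei24 (0.03), Fads2 (0.014), Nsdhl (0.026), Hsp90b1 (0.0034), Klf4 (0.0924), Egr2 (0.1058), Atp5b (0.1178), Psmb2 (0.1018), Rps24 (0.0282) and Cdkn1a (0.2037). Leaving out 1 array put the difference of Cdkn1a between -0.3639 and 0.0237, the latter wherever dp18 replicate 1 was left out, and it turned to 0.1283 with array weights and to 0.0464 with array-median centring. The cause was not tested.

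The titles number the wild-type arrays of every stage, but same-numbered dp12 and dp18 arrays deviated together with correlations of 0.078, -0.038 and 0.115, so the numbers were not taken as pairs. With the replicate block 0 genes passed, and 1672 had an unadjusted p under 0.05, against 1907 in the same 12 arrays without the block.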

Other observations

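The gene with the lowest difference of all 15234, BC018473, was at 11.20, 4.07 and 10.88 on the dp12 arrays and at 4.48, 4.24 and 3.95 on the dp18 arrays, so that dp12 replicate 2 read like dp18 (difference -4.50, SE 1.65, adjusted p = 0.48 in limma). Klk1b22, a kallikrein gene, was at 3.17, 7.30 and 9.81 and then at 3.16, 3.30 and 3.19, with the 3 dp12 arrays far apart and the 3 dp18 arrays within 0.2 of each other. Both were chosen after their values were seen.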
